A study of Mus musculus with 10 samples.

Results

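The interleukin-1 (IL-1) family examined here is a set of 10 genes, listed by name with earlier results of these data known. They include 4 agonist cytokines (Il1a, Il1b, Il18 and Il33) and 2 soluble antagonists (Il1rn and Il18bp). The others are 3 signaling receptor chains (Il1r1, Il1rap and Il1rl1) and the decoy receptor Il1r2. All 10 were found among the 17864 genes of the count table, and all 10 were among the 14816 genes with enough reads to be tested. RNA of whole tumors was sequenced, so that transcripts of carcinoma cells and of every host cell in the tumor were read together, although the labels call the cell type tumor cell. There were 5 sgCon tumors, grown from 4T1 cells carrying Cas9 and a control guide RNA (sgControl), and 5 sgTaz tumors, grown from 4T1 cells carrying Cas9 and a guide RNA against Taz, whose mouse gene is Wwtr1. 4T1 is a mammary carcinoma line of BALB/c origin. In the methods such cells were grown orthotopically in females aged 6 to 8 weeks, either immunocompetent BALB/c mice or SCID mice that lack mature lymphocytes, and the strain of the sequenced tumors is not given in the sources used here. Whether the edited cells were 1 clone or a pool is likewise not given there. RNA of all 6 T cell markers listed was read in each of the 10 tumors, while some B cell markers were at 0 in some tumors (sums below). The strain of the mice was not tested from these markers. Cas9 was present in both groups, and host cells of the tumor carried an intact Wwtr1.

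IL-1α and IL-1β signal through the receptor IL1R1 together with the accessory chain IL1RAP, which recruits MYD88 and IRAK kinases and leads to NF-kB activation and to chemokines that draw neutrophils. The family is held in check at every level: IL1RN occupies the receptor without signaling, IL1R2 binds IL-1 but lacks a signaling tail, and IL18BP captures IL-18 in solution. IL-33 acts through IL1RL1 (ST2), a receptor known from mast cells, regulatory T cells and type 2 lymphoid cells, and shares IL1RAP with IL-1. IL-1β and IL-18 are made as precursors that caspase-1 cleaves in inflammasomes, so that their RNA level is not a measure of the active cytokine.

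The targeted gene was read first. Wwtr1 was at 192, 181, 115, 171 and 156 CPM (a count scaled to the size of its library by the TMM method) in sgCon tumors 1 to 5. It was at 86.6, 104, 110, 139 and 102 CPM in sgTaz tumors 1 to 5, and 4 of these 5 lay under the sgCon range. The log2 fold change, sgTaz over sgCon, was -0.59 (SE 0.15, unadjusted p = 0.00217, adjusted p = 0.096 in the quasi-likelihood test of edgeR, and adjusted p = 0.0149 in DESeq2). The library labels were therefore not contradicted, although the adjusted p of edgeR was above 0.05, the threshold used throughout. Library totals ran from 14753922 to 19595821 counts for sgCon and from 12185383 to 18395558 counts for sgTaz. The 6 epithelial markers (keratins, Epcam and Cdh1) summed to 1881 to 3844 CPM in sgCon and 1383 to 2867 CPM in sgTaz tumors, so that epithelial RNA was present in each library. All 6 were lower on average in sgTaz tumors, with a median log2 fold change of -0.589 in edgeR. The sums of 4 sgTaz tumors lay under the sgCon range. The part of epithelial RNA in the level of Wwtr1 was not tested. Markers of lymph node stroma stood apart: their sum was 35.2 to 700 CPM in the sgCon group, 350 CPM in sgTaz tumor 5, and 1.55 to 7.45 CPM in the other 4 sgTaz tumors. Named family and pathway genes called by DESeq2 or limma-voom are therefore also given without sgTaz tumor 5 and without sgCon tumor 3, the sgCon tumor with the highest sum. Neither step removes the group difference in these markers. Without sgTaz tumor 5, every sgTaz sum lay under the sgCon range. Without sgCon tumor 3, the other sgCon sums still reached 227 CPM. These fits therefore cannot show that a call is free of lymph node tissue, and its part was not tested.

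Of the 10 genes, 3 differed between the groups with an unadjusted p below 0.05, the decoy receptor Il1r2, the IL-18 inhibitor Il18bp and the signaling receptor Il1r1. Il1r2 was lower in sgTaz tumors, at 0.447 of the sgCon level, while Il18bp was 1.46-fold and Il1r1 1.26-fold higher. The 4 agonist cytokines were all lower on average, with intervals that included no change. With edgeR and adjustment over all tested genes, 0 of the 10 members passed, where 1 gene in the whole table did (0.00675% of genes tested). At an unadjusted p below 0.05 in edgeR, 2 of 10 members were higher (Il1r1 and Il18bp), against 9.86% of all genes, and 1 was lower (Il1r2), against 11.9%. DESeq2 called 1 member higher (Il18bp), with 3.38% of genes called higher, and 1 lower (Il1r2), with 3.5% called lower. The limma-voom test with sample quality weights called 2 higher (Il1r1 and Il18bp) and 1 lower (Il1r2), with 4.63% of genes called higher and 5.8% lower. On the log2 scale Il1r2 was at -1.16 in edgeR, -1.15 in DESeq2 and -1.24 in limma-voom, and Il18bp at 0.54, 0.56 and 0.48. For these 2 genes the tools differed in what they called more than in their estimates. Among members that no tool called, limma-voom was at 0.128 for Il1rl1 and -0.211 for Il1rn, where edgeR was at 0.355 and -0.089. For Il1a both were at -0.602. In the exact permutation test of log2 CPM, 2 members had an unadjusted p below 0.05, where 19.2% of all genes did.

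**Figure D1:**
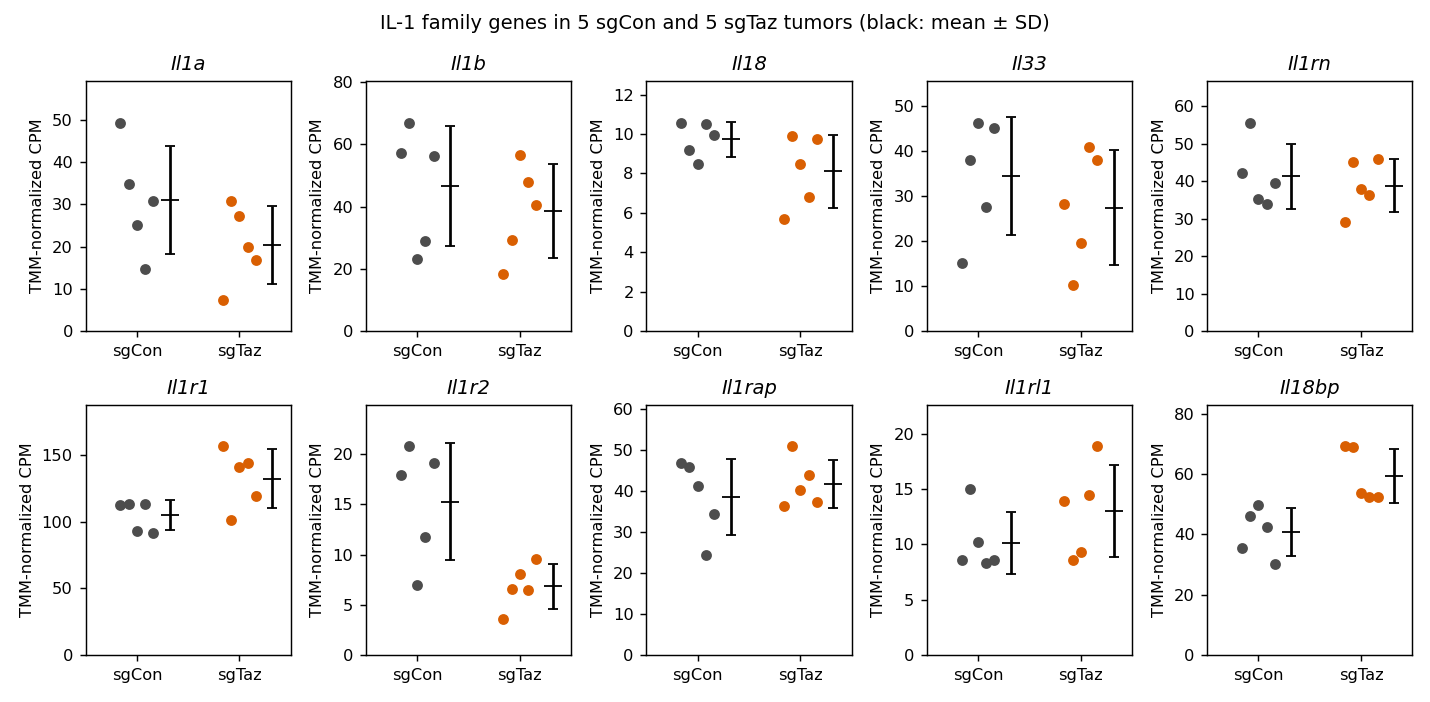
TMM-normalized CPM (y axes, each from 0) of the 10 family genes in 5 sgCon (gray) and 5 sgTaz (orange) tumors, 1 point a tumor, drawn from tumor 1 at the left to tumor 5 at the right of each group, with the mean ± SD in black. The 5 sgTaz points of Il18bp all lie above the sgCon points. Of the 5 sgTaz points, 3 lie below the sgCon points for Il1r2, and 3 for the cytokine Il18. The groups of Il1r2 and of every cytokine overlap.

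The region just before a RefSeq start of transcription is shown for the 3 genes that carry these differences. TAZ acts on promoters and enhancers through TEAD factors, and interferon and NF-kB pathways act on this family. Sequences are from RefSeq (GRCm38.p6), 250 bases before each start, read 5′ to 3′ on the strand of the gene. Capitals mark matches, on either strand, to 4 short motifs: TEAD (GGAATG), AP-1 (TGANTCA), NF-kB and the core of the interferon element ISRE. No motif overlapped another in the windows shown.
Il1r2, chr1:40085843-40086092, plus strand: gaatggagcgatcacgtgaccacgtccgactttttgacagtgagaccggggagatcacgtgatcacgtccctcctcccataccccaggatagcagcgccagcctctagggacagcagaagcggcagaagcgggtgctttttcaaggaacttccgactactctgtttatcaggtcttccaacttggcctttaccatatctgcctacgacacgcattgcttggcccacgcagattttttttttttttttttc
Il18bp, chr7:102018233-102018482, minus strand: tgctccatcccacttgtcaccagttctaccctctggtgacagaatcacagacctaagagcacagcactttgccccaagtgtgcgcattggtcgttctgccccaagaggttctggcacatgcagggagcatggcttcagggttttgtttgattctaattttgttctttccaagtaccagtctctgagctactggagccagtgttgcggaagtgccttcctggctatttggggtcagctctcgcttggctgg
Il1r1, later of 2 starts, chr1:40266336-40266585, plus strand: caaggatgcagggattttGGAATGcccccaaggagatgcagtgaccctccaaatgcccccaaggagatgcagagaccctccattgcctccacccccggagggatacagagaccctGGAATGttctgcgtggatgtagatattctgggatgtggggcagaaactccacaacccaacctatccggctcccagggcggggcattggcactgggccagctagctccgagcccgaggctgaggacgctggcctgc
The windows of Il1r2 and Il18bp held none of the motifs. Both windows lie inside the GENCODE spans of their genes (chr1:40074079-40125231 and chr7:102014885-102018690). The bases before the outermost GENCODE start of these 2 genes were therefore not searched. The later start of Il1r1 had 2 TEAD matches, 232 and 135 bases before it, and the earlier start had none. A TEAD match was present in 12.6% of 32851 RefSeq promoter windows of this length, and an ISRE core, which no member's window held, in 2.98%. Among the other members, TEAD matches lay before both starts of Il33 (131 and 107 bases), before the later start of Il1rl1 (132 bases) and before 1 of the 3 starts of Il1rn (24 bases). AP-1 matches, held by 6.75% of all windows, lay 12 bases before the start of Il1a and 141 bases before the first start of Il1rn. NF-kB matches, held by 17.6% of windows, lay before that same start of Il1rn (54 bases) and before Il1rap (119 bases). The single windows of Il1b and Il18 held none of these motifs. A match states only that the letters are present.

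Il1r2 encodes the IL-1 decoy receptor, and lies at the head of a cluster of 6 family receptor genes on chromosome 1 that spans 478 kb (Il1r2, chr1:40074079-40125231, GRCm38). Its level was 17.9, 20.8, 6.92, 11.7 and 19.1 CPM in sgCon tumors 1 to 5. In sgTaz tumors 1 to 5 it was 3.56, 6.52, 8.04, 6.47 and 9.53 CPM. The ranges overlapped through sgCon tumor 3, which was below 2 sgTaz tumors, while the other 3 sgTaz values lay under the whole sgCon range. The means were 15.3 ± 5.79 CPM (SD, n = 5) and 6.83 ± 2.22 CPM (SD, n = 5). The log2 fold change was -1.16 (SE 0.32, 95% interval -1.86 to -0.47), with an adjusted p of 0.101 in edgeR, 0.0115 in DESeq2 and 0.0269 in limma-voom, and an unadjusted p of 0.0238 in the exact permutation test. Without sgTaz tumor 5 the adjusted p of DESeq2 was 0.00365 (log2 fold change -1.29), and without sgCon tumor 3 it was 0.00016 (log2 fold change -1.33). In limma-voom these were 0.0236 and 0.0277. The permutation test passed its threshold no longer when sgCon tumor 2 or sgCon tumor 5 was left out (exact p = 0.0556 in either case).

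Neutrophils are a known source of the decoy receptor, and neutrophil markers were lower beside it. Their sum was 212 to 811 CPM in the sgCon group and 75.4 to 313 CPM in the sgTaz group, where 4 of 5 tumors lay under the sgCon range. All 9 markers tested of the 10 listed were lower on average, 4 of them with an unadjusted p below 0.05 in edgeR (11.9% of all genes were lower at this p) and none called by DESeq2. None of the 10 was at 0 in any tumor. In RNA of whole tumors, fewer cells of a type and less RNA in each such cell cannot be told apart, and the part of the neutrophil markers in the Il1r2 difference was not tested. The 3 genes whose log2 CPM was most like that of Il1r2 over the 10 tumors were Asprv1 (r = 0.978), Gm5483 (r = 0.970) and the neutrophil chemokine Cxcl2 (r = 0.955). These are descriptions over 10 libraries that share their depth and their group difference, chosen as the highest of 14815 genes.

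Il18bp, the soluble inhibitor of IL-18, was the only member whose groups did not overlap. It lies on the minus strand of chromosome 7 (chr7:102014885-102018690). The sgCon tumors 1 to 5 had 35.6, 46.3, 49.6, 42.5 and 30.1 CPM. The sgTaz tumors 1 to 5 had 69.2, 69.0, 53.6, 52.4 and 52.5 CPM, each above the highest sgCon tumor. The means were 40.8 ± 7.95 CPM (SD, n = 5) and 59.3 ± 8.90 CPM (SD, n = 5). The log2 fold change was 0.54 (SE 0.15, 95% interval 0.22 to 0.86), with an adjusted p of 0.1 in edgeR, 0.0196 in DESeq2 and 0.0405 in limma-voom. The exact permutation p was 0.00794, the smallest that 5 against 5 tumors allow. Groups without overlap in the higher direction were seen for 1 of 10 members, against 2.44% of all genes, and in the lower direction for 0 of 10, against 2.13%. DESeq2 gave an adjusted p of 0.0156 without sgTaz tumor 5 and of 0.00655 without sgCon tumor 3. The limma-voom call held without sgTaz tumor 5 (adjusted p = 0.0466) and not without sgCon tumor 3 (adjusted p = 0.0521).

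Il18bp is a gene that interferon gamma is known to induce. The genes most like it over the 10 tumors were Ifng, the gene of interferon gamma (r = 0.960), and the guanylate-binding protein genes Gbp2b (r = 0.953) and Gbp3 (r = 0.951). Leaving out the 2 tumors farthest from the median of Il18bp gave r of 0.917, 0.903 and 0.955, a step also run for the other members. The 3 genes were chosen as the highest of 14815. Each was itself higher in sgTaz tumors, with log2 fold changes of 0.776, 0.465 and 0.377 in edgeR, so that they share the group difference of Il18bp. Macrophage markers summed to 1558 to 2191 CPM in sgTaz and 810 to 1861 CPM in sgCon tumors. All 8 macrophage markers were higher on average, 6 with an unadjusted p below 0.05 in edgeR (9.86% of all genes were higher at this p) and 4 called by DESeq2 (3.38% of all genes), and none was at 0 in any tumor. The parts of interferon gamma and of macrophages in the level of Il18bp were not tested. Exons of Il18bp share 80 bases with Numa1 on the other strand, and whether the counting used strand is not stated.

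**Figure D2:**
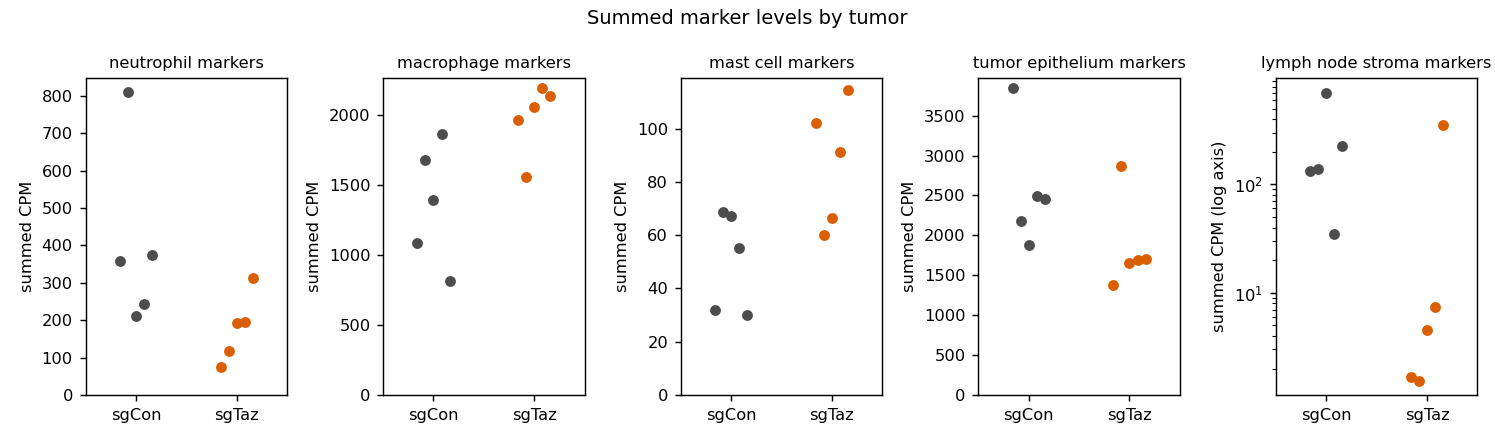
Summed CPM of marker lists (y axes from 0, the last on a log axis) in 5 sgCon (gray) and 5 sgTaz (orange) tumors, 1 point a tumor. Neutrophil sums are between 75.4 and 313 CPM in sgTaz tumors against 212 to 811 CPM in sgCon tumors, and the lymph node stroma sum of sgTaz tumor 5 (350 CPM) stands above those of the other sgTaz tumors.

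Among the agonists, Il1a and Il1b together span 71.5 kb on the minus strand of chromosome 2 (Il1a, chr2:129299610-129309972, and Il1b, chr2:129364570-129371139). Il1a encodes IL-1α, an alarmin active without cleavage. It was at 49.2, 34.8, 25.1, 14.7 and 30.8 CPM in sgCon tumors 1 to 5 and at 7.26, 30.7, 27.2, 19.8 and 16.7 CPM in sgTaz tumors 1 to 5. Both groups were widely spread, and sgTaz tumor 1 alone was below every sgCon tumor. On the log2 scale Il1a differed by -0.60 (SE 0.37, 95% interval -1.42 to 0.22, adjusted p = 0.364 in edgeR, 0.331 in DESeq2). Il1b, the inflammasome-dependent cytokine made mostly by myeloid cells, was at 57.2, 66.9, 23.2, 29.0 and 56.3 CPM in sgCon tumors 1 to 5. In sgTaz tumors 1 to 5 it was at 18.4, 29.3, 56.5, 47.9 and 40.5 CPM, so that high and low tumors were found in both groups. For Il1b the log2 fold change was -0.27 (SE 0.34, 95% interval -1.02 to 0.47, adjusted p = 0.671 in edgeR). The intervals of both genes included 0.

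Il18 (chr9:50554827-50581840), a cytokine made by epithelium and macrophages that drives interferon gamma production, was the least variable agonist among the control tumors. It ranged from 8.48 to 10.6 CPM in sgCon and from 5.66 to 9.88 CPM in sgTaz tumors, of which 3 lay under the sgCon range. For Il18 the log2 fold change was -0.26 (SE 0.17, 95% interval -0.63 to 0.11, adjusted p = 0.382 in edgeR). Il33 (chr19:29925114-29960718), the nuclear alarmin that binds ST2, ranged from 15.1 to 46.2 CPM in sgCon and from 10.2 to 40.9 CPM in sgTaz tumors. The log2 difference of Il33 was -0.33 (SE 0.37, 95% interval -1.16 to 0.49, adjusted p = 0.635 in edgeR). Neither gene had an unadjusted p below 0.05 in edgeR. Of the epithelial markers, all 6 were lower on average, 4 with an unadjusted p below 0.05 in edgeR and 1 called by DESeq2, beside 11.9% and 3.5% of all genes, and none was at 0 in any tumor. Macrophage markers went the other way, with all 8 higher on average and a median log2 fold change of 0.507 in edgeR. The part of either set of markers in the levels of the cytokines was not tested.

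Il1rn (chr2:24336853-24351494) encodes the IL-1 receptor antagonist. It ranged from 34.0 to 55.6 CPM in sgCon and from 29.0 to 46.0 CPM in sgTaz tumors, and only sgTaz tumor 1 lay outside the sgCon range. On the log2 scale the difference of Il1rn was -0.089 (SE 0.16, 95% interval -0.44 to 0.26, adjusted p = 0.772 in edgeR), and its sign turned when sgCon tumor 2 or sgTaz tumor 1 was left out (0.043 and 0.001).

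Il1r1 (chr1:40225080-40317257) encodes the signaling receptor of IL-1, which fibroblasts, endothelium and many epithelia carry. It was at 113, 113, 93.4, 114 and 91.8 CPM in sgCon tumors 1 to 5. In sgTaz tumors 1 to 5 it was at 157, 101, 141, 144 and 119 CPM. All sgTaz tumors except tumor 2 were above every sgCon tumor. The means were 105 ± 11.3 CPM (SD, n = 5) and 132 ± 22.03 CPM (SD, n = 5). The log2 fold change was 0.34 (SE 0.12, 95% interval 0.072 to 0.60), with an adjusted p of 0.154 in edgeR, 0.0918 in DESeq2 and 0.0476 in limma-voom, and an exact permutation p of 0.0556. Leaving out 1 tumor other than sgTaz tumor 2 gave exact permutation p from 0.0556 to 0.0952. The single sgTaz tumor within the sgCon range was tumor 2, so that leaving it out fixes the separation of the groups. The limma-voom call was kept without sgTaz tumor 5 (adjusted p = 0.0403) and lost without sgCon tumor 3 (adjusted p = 0.0808), while DESeq2 gave an adjusted p of 0.0815 and 0.177. The sum of fibroblast markers was 1194 to 3280 CPM in sgCon and 1304 to 2815 CPM in sgTaz tumors, and that of endothelial markers 341 to 445 CPM and 277 to 568 CPM, so that both overlapped. Their part in the level of Il1r1 was not tested. The genes most like Il1r1 were Dock4 (r = 0.969), Atp2c1 (r = 0.967) and Tmed10 (r = 0.965) over the same 10 tumors.

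Il1rap (chr16:26581704-26730117), the accessory chain shared by the IL-1 and IL-33 receptors, ranged from 24.3 to 46.8 CPM in sgCon and from 36.3 to 50.8 CPM in sgTaz tumors. On the log2 scale the difference was 0.11 (SE 0.17, 95% interval -0.26 to 0.49, adjusted p = 0.727 in edgeR), and turned to -0.014 without sgCon tumor 4, its lowest control tumor. Il1rl1 (chr1:40429570-40465415), which encodes the IL-33 receptor ST2, was at 8.59, 14.97, 10.2, 8.33 and 8.56 CPM in sgCon tumors 1 to 5. It was at 13.9, 8.59, 9.27, 14.4 and 18.8 CPM in sgTaz tumors 1 to 5, where tumors 1, 4 and 5 were the highest and only tumor 5 was above every sgCon tumor. For Il1rl1 the log2 fold change was 0.36 (SE 0.24, 95% interval -0.18 to 0.89, adjusted p = 0.409 in edgeR). Mast cell markers summed to 29.9 to 68.8 CPM in sgCon and 60.1 to 115 CPM in sgTaz tumors, and the same tumors 1, 4 and 5 had the 3 highest sums, at 102, 91.1 and 115 CPM. All 6 mast cell markers were higher on average, 3 with an unadjusted p below 0.05 in edgeR and 1 called by DESeq2, beside 9.86% and 3.38% of all genes, and none was at 0. Their part in the level of Il1rl1 was not tested. Counts per gene do not separate membrane from soluble forms, which both Il1rl1 and Il1rap are known to have.

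**Figure D3:**
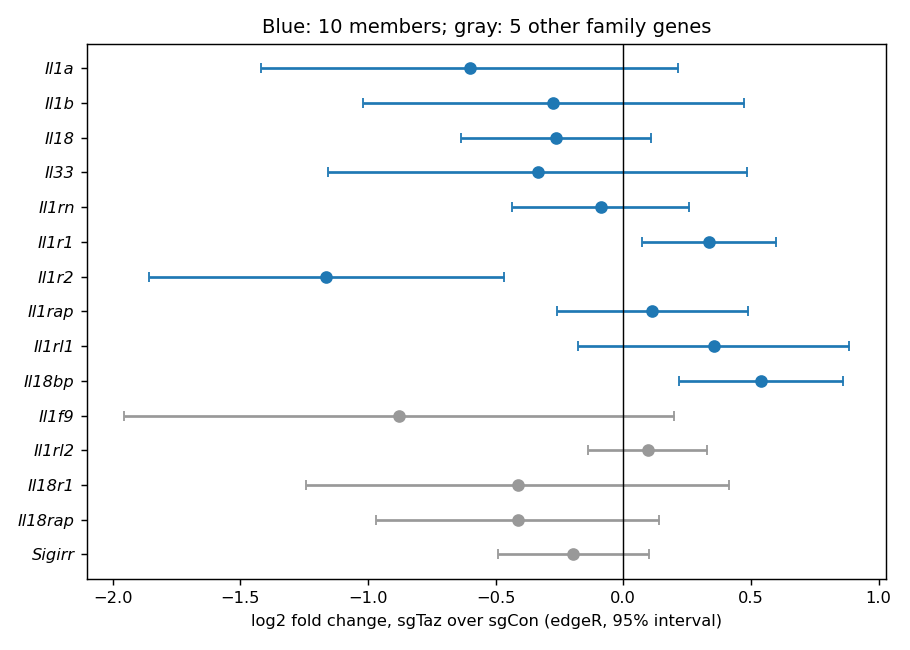
Log2 fold change of each gene, sgTaz over sgCon (x axis), with the 95% interval of edgeR, for the 10 members (blue) and 5 further family genes (gray). The intervals of Il1r2, Il1r1 and Il18bp do not include 0 before adjustment over all genes, and the other 12 do.

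Compared per kilobase of exon, the most abundant member in sgCon tumors was Il1b, at a mean of 24.4 CPM per kb. It was followed by Il1r1 (16.5), Il1a (15.7), Il18bp (13.5), Il33 (11.9), Il18 (9.44), Il1r2 (8.01) and Il1rn (7.46), all in CPM per kb. Each of these neighbours overlapped in range over the 5 tumors. Il1rap (3.39 CPM per kb) was below Il1rn in all 5 sgCon tumors without overlap, and Il1rl1 (1.47 CPM per kb) came last. In sgTaz tumors the mean levels of Il1r1 (20.8), Il1b (20.2) and Il18bp (19.6 CPM per kb) came first, and Il1r2 moved from place 7 to place 9 of 10 (3.58 CPM per kb). The order within a group is a description, since exon length stands for the length of all annotated exons of a gene.

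Ratios of opposing members within a tumor do not depend on library size. The level of Il1r1 per kb was 1.89, 1.63, 4.03, 2.90 and 1.44 times that of the decoy Il1r2 in sgCon tumors 1 to 5. In sgTaz tumors 1 to 5 it was 13.1, 4.63, 5.24, 6.64 and 3.74 times that of Il1r2. Of these, 4 were above every sgCon tumor, and the geometric mean was 2.73-fold higher (difference of log2 ratios 1.45). The ratio of Il18 to its inhibitor Il18bp was 0.874, 0.586, 0.504, 0.727 and 0.972 in sgCon tumors and 0.242, 0.422, 0.465, 0.382 and 0.546 in sgTaz tumors 1 to 5. It was below every sgCon tumor in all sgTaz tumors but tumor 5, and lower by 0.84 on the log2 scale (-0.84). The remaining pairs overlapped more. The median ratio of Il33 to Il1rl1 was 7.87 in sgCon and 4.85 in sgTaz tumors, that of Il1a to Il1rn 1.99 and 1.54, and that of Il1b to Il1rn 3.49 and 2.55. The pairs were chosen with earlier results of these data known, and are given with no test.

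**Figure D4:**
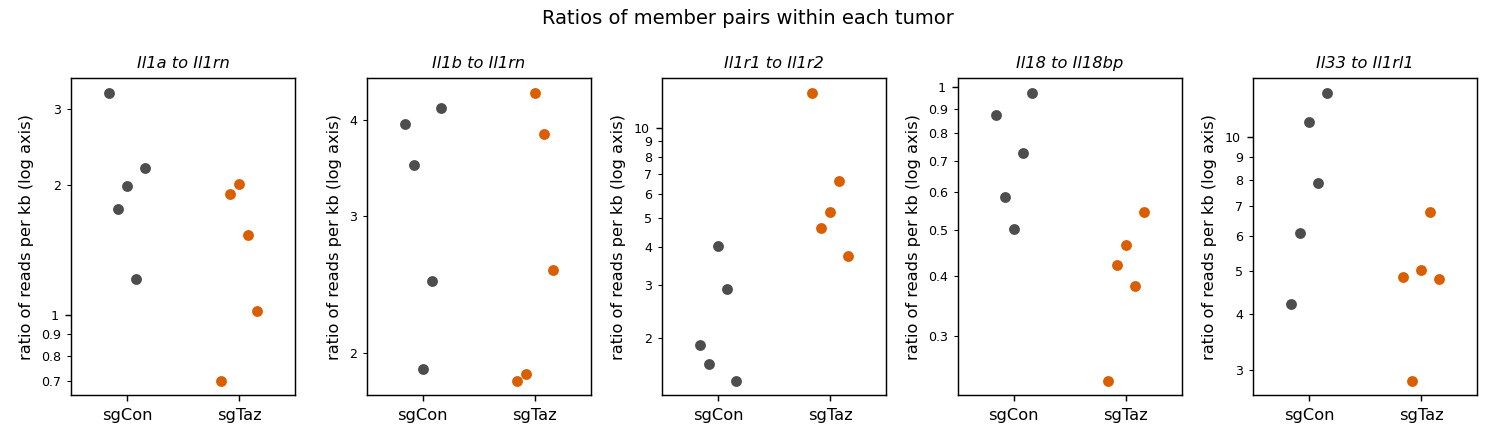
Ratio of reads per kb of exon (log axes) for 5 pairs of opposing or cognate members within each of 5 sgCon (gray) and 5 sgTaz (orange) tumors. For Il1r1 to Il1r2, 4 sgTaz tumors lie above all sgCon tumors, and for Il18 to Il18bp, 4 lie below them.

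Of 11 further family genes listed, 5 were in the table: Il1f9 (IL-36γ), Il1rl2 (the IL-36 receptor), Il18r1 and Il18rap (both chains of the IL-18 receptor) and Sigirr (an inhibitory receptor). None passed with edgeR (0 with an unadjusted p below 0.05), DESeq2 or limma-voom. Log2 fold changes were -0.88 for Il1f9 (adjusted p = 0.317 in edgeR, on 7 to 68 counts per tumor), 0.095 for Il1rl2 (0.634), -0.41 for both Il18r1 (0.547) and Il18rap (0.358), and -0.20 for Sigirr (0.416).

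Genes that process and relay IL-1 were counted over whole lists. Of 10 maturation genes, 9 were tested, and 5 were higher and 4 lower on average, with a median log2 fold change of 0.026 against -0.019 over all genes. Casp1, which cleaves pro-IL-1β and pro-IL-18, was at 113 ± 16.1 CPM in sgCon and 149 ± 14.99 CPM in sgTaz tumors (SD, n = 5 each). Its log2 fold change was 0.40, with an adjusted p of 0.1 in edgeR, 0.023 in DESeq2 (0.0561 without sgCon tumor 3 and 0.0333 without sgTaz tumor 5) and 0.0282 in limma-voom (0.045 and 0.0309). Casp1 was the 1 gene of the 9 called by DESeq2 and by limma-voom, and 2 of the 9 were higher at an unadjusted p below 0.05 in edgeR, beside 3.38%, 4.63% and 9.86% of all genes. Without sgCon tumor 3, 8 of the 9 genes were higher on average, and without sgTaz tumor 5, 4 were. The inflammasome sensor gene Nlrp1b was at 0.56 (adjusted p = 0.216 in edgeR) and Nlrp3 at 0.18 (0.514). The adaptor Pycard (-0.40, 0.362), the DNA sensor Aim2 (-0.13, 0.726) and the pore-forming Gsdmd (-0.055, 0.771) were lower on average without passing.

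All 22 signaling genes were tested, and 18 were lower and 4 higher on average, with a median log2 fold change of -0.16, where 53% of all genes were lower. None passed with edgeR after adjustment. At an unadjusted p below 0.05 in edgeR, 6 were lower (27.3% of the list, against 11.9% of all genes) and 0 higher (9.86% of all genes). Without sgCon tumor 3 this count was 3 lower and 0 higher, and without sgTaz tumor 5 it was 6 lower and 0 higher. On average, 15 of the 22 genes were lower without sgCon tumor 3 (median log2 fold change -0.105). Without sgTaz tumor 5, 20 were lower (median -0.182). Over all genes and both directions, 2798 of 14948 and 3026 of 14974 had an unadjusted p below 0.05 in these edgeR fits. DESeq2 called 1 lower, with 3.5% of all genes called lower, and limma-voom 2, with 5.8%. Markers of lymphocytes were lower beside this list: T cell markers summed to 96.9 to 597 CPM in sgCon and 77.4 to 192 CPM in sgTaz tumors. Of these 6, all were lower on average, 5 with an unadjusted p below 0.05 in edgeR and 2 called by DESeq2, and none was at 0. B cell markers summed to 62.4 to 839 CPM and 0.955 to 195 CPM (7 of 7 lower, 5 with an unadjusted p below 0.05 in edgeR and 0 called by DESeq2), with Ms4a1, Cr2 and Fcer2a at 0 in at least 1 tumor. Of all genes, 11.9% were lower at this p and 3.5% were called lower by DESeq2. Both sums were highest in sgCon tumor 3 and their part in the list was not tested. Rela, the p65 subunit of NF-kB, was at 90.1 ± 7.23 CPM in sgCon and 71.1 ± 4.67 CPM in sgTaz tumors (SD, n = 5 each), with a log2 fold change of -0.34 and an adjusted p of 0.0896 in edgeR, 0.00946 in DESeq2 and 0.0305 in limma-voom. Rela kept both calls without sgCon tumor 3 (adjusted p = 0.0281 in DESeq2 and 0.0493 in limma-voom) and without sgTaz tumor 5 (0.0289 and 0.045). Tab1, a partner of the kinase TAK1, did not overlap between groups, as 1 of 22 genes of the list and 2.13% of all genes did in the lower direction (32.5 ± 3.09 against 26.5 ± 1.54 CPM, SD, n = 5 each, log2 fold change -0.30, adjusted p = 0.114 in edgeR and 0.0616 in DESeq2). The kinase gene Ikbkb had a log2 fold change of -0.34 (adjusted p = 0.145 in edgeR and 0.0485 in limma-voom, where it was 0.0722 without sgCon tumor 3 and 0.0388 without sgTaz tumor 5). Myd88 (0.093, adjusted p = 0.671), Irak4 (0.051, 0.789) and Map3k7 (0.003, 0.985), the 3 higher genes with the smallest p, were close to 0 in edgeR.

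Of 20 genes that IL-1 is known to induce in many cells, 18 passed the filter on reads (Ccl20 and Sele did not), and 15 were lower and 3 higher on average, with a median log2 fold change of -0.25. Again 0 passed in edgeR after adjustment, with 4 lower and 1 higher at an unadjusted p below 0.05, beside 11.9% lower and 9.86% higher of all genes. DESeq2 called 1 higher and 0 lower (3.38% and 3.5% of all genes), and limma-voom 1 higher and 2 lower (4.63% and 5.8%). Without sgCon tumor 3, DESeq2 called 0 higher and 2 lower (Cxcl1 and Cxcl2) and limma-voom 0 higher and 3 lower. Over all genes these fits called 432 higher and 308 lower of 14335 (DESeq2), and 358 higher and 529 lower of 14948 (limma-voom). Without sgTaz tumor 5, DESeq2 called 0 in either direction and limma-voom 1 higher and 2 lower. Over all genes they called 466 higher and 853 lower of 17098 (DESeq2), and 590 higher and 836 lower of 14974 (limma-voom). The neutrophil chemokine gene Cxcl1 was at 28.1 ± 10.7 CPM in sgCon and 17.0 ± 3.51 CPM in sgTaz tumors (SD, n = 5 each, log2 fold change -0.72, adjusted p = 0.153 in edgeR, 0.0718 in DESeq2 and 0.0296 in limma-voom). Without sgCon tumor 3 the adjusted p of Cxcl1 was 0.0151 in DESeq2 and 0.0313 in limma-voom, and without sgTaz tumor 5 it was 0.134 and 0.039. Cxcl2, from the same chemokine group, had a log2 fold change of -1.42 (adjusted p = 0.178 in edgeR), and the matrix protease gene Mmp3 of -0.98 (0.195). The adhesion molecule gene Vcam1 went the other way, at 191 ± 43.5 CPM in sgCon and 284 ± 56.7 CPM in sgTaz tumors (SD, n = 5 each, log2 fold change 0.57, adjusted p = 0.118 in edgeR, 0.0333 in DESeq2 and 0.036 in limma-voom). DESeq2 no longer called Vcam1 without sgCon tumor 3 (adjusted p = 0.0657) or without sgTaz tumor 5 (0.0604), and limma-voom lost it without sgCon tumor 3 (0.0573). Ptges (0.20, adjusted p = 0.306 in edgeR) and Icam1 (0.12, 0.836) were the other 2 genes higher on average. Cxcl2 is also 1 of the 3 genes most like Il1r2. The neutrophil markers given beside Il1r2 were lower on average too, and their part in them was not tested.

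**Figure D5:**
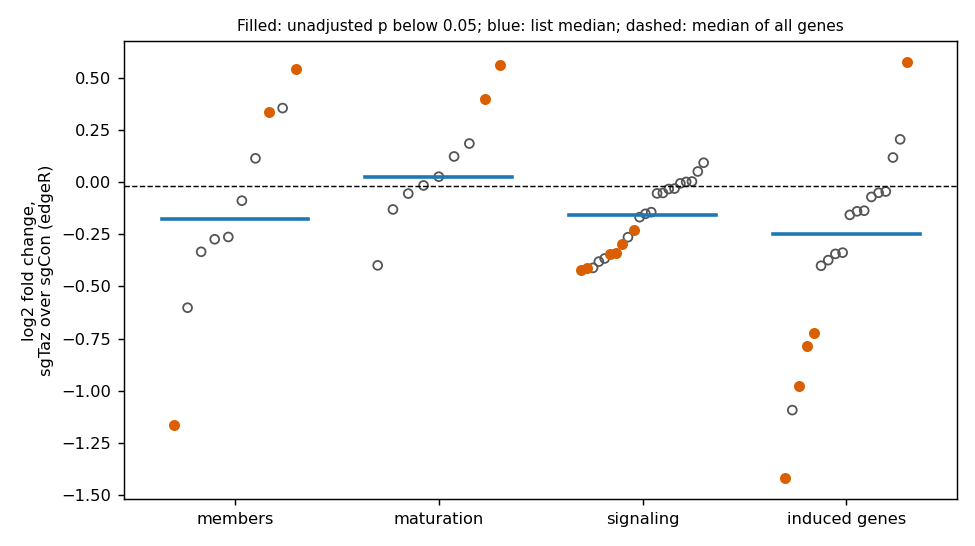
Log2 fold change, sgTaz over sgCon (y axis, edgeR), of each tested gene of the members, the maturation, the signaling and the induced gene lists, ordered by value within a list. Filled points have an unadjusted p below 0.05, blue bars are list medians (-0.18, 0.026, -0.16 and -0.25) and the dashed line is the median of all genes (-0.019).

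The genes most like the remaining members over the 10 tumors, by Pearson's r of log2 CPM, were named by the same rule. For Il1a they were Tnn (r = 0.940), Gpr137b-ps (r = 0.919) and Gm13270 (r = 0.919), and for Il1b Mrgpra2b (r = 0.932), Prg4 (r = 0.927) and Clec4e (r = 0.912). For Il18 they were Pdk3 (r = 0.937), Cyb5rl (r = 0.927) and Ripk4 (r = 0.925), and for Il33 Tspan7 (r = 0.931), Zfp583 (r = 0.917) and ENSMUSG00000118423.1 (r = 0.912). For Il1rn they were Prrg4 (r = 0.889), Stfa3 (r = 0.880) and Fgf7 (r = 0.877). For Il1rap they were Gm7592 (r = 0.934), Nab1 (r = 0.931) and Gm37226 (r = 0.923), and for Il1rl1 Fam126a (r = 0.902), Ahrr (r = 0.897) and Zfp449 (r = 0.895). Each is the highest of 14815 values, given as a description of these 10 libraries with no test.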

How the data were processed

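Whole-tumor RNA of 5 sgCon and 5 sgTaz tumors was analysed. The authors mapped reads with STAR to mm10 with GENCODE annotation and counted reads per gene with featureCounts (Subread), and the deposited values are these raw counts, whole numbers without normalization. CASAVA is also listed in the submitters' processing notes. Tool versions, the strand setting and the rule for entering genes in the table are not given in the sources used here. Of 15 columns, 5 further ones matched no sample and were not used.

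Identifiers were matched to GENCODE M21 (17860 of 17864). Total counts were between 12185383 and 19595821, so that 3 counts are between 1.53e-05% and 2.46e-05% of a library, counting error only. The lowest chi-square per degree of freedom among 20 pairs of tumors of the same group was 6.49, and none was treated as a duplicate. Counts were tested with edgeR 4.0.16 in R 4.3.3 (TMM, filterByExpr by group, glmQLFit and glmQLFTest, group only, Benjamini-Hochberg over 14816 genes, adjusted p below 0.05). The exact two-sided permutation test used log2 CPM with a prior count of 2 and all 252 splits, unadjusted. Ratios had 0.5 added to each count. Alternatives were DESeq2 1.42.0, limma 3.58.1 (voom, with quality weights per sample), edgeR with RLE or with upper-quartile scaling, no filter or a minimum of 10 counts in all tumors, each tumor left out, and the replicate number as a block. DESeq2 and limma-voom without sgTaz tumor 5 and without sgCon tumor 3, and the list counts without them, were chosen after seeing the data. Scripts were tested on simulated data.

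The members and lists were chosen with earlier results of these data known. Named were all members, Wwtr1, the other family genes in the table, up to 3 genes per direction and list with the smallest unadjusted p, and for each member the 3 genes with the highest r. Nothing in the labels says that tumors with the same replicate number share a mouse, litter or day. Where labels do not state separate animals, p-values measure the spread between these samples. Genes that share exon bases on the opposite strand were Il1a with Gm14023 (222 bases), Il1b with Il1bos (25), Il1rap with Gm20319 (552) and Il18bp with Numa1 (80).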

Additional observations from a re-analysis of the deposited data

Results flagged for a closer look

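None of the 10 members had a tumor standing apart from the other 4 of its group by Dixon's test. Among 54 groups of 5 tumors checked (members, member ratios and marker sums), 3 had a tumor that stood apart, where chance gives about 1 in 20, or 2.7 groups. All 3 were marker sums of sgTaz tumors. The tumor epithelium markers had a log2 summed CPM of 11.485 in sgTaz tumor 2, against 10.434 to 10.736 in the other sgTaz tumors. The lymph node stroma markers reached 8.450 in sgTaz tumor 5, against 0.632 to 2.896 in the others. The fibroblast markers were at 10.349 in sgTaz tumor 1, against 11.279 to 11.459 in the other sgTaz tumors. The same tumor had the lowest Il1a, Il1b, Il1rn, Il18 and Il1r2 of all tumors, and the highest Il1r1 and Il18bp. Its sums of neutrophil markers (75.4 CPM) and of epithelial markers (1383 CPM) were the lowest too.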

How the results depend on the processing

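With edgeR, 1 gene was called over the whole table. DESeq2 called 1081 (531 higher and 550 lower) and limma-voom 1546 (686 higher and 860 lower), no filter gave 0 in edgeR (3610 at an unadjusted p below 0.05), and at least 10 counts in every tumor gave 5. Leaving out 1 tumor gave 0 to 172 calls, with 172 without sgTaz tumor 5 and 75 without sgTaz tumor 2. Of the members, 0 were called by edgeR, also with any tumor left out, 2 by DESeq2, 3 by limma-voom, and 2 by DESeq2 without sgTaz tumor 5 and 2 without sgCon tumor 3 (Il1r2 and Il18bp each time). The limma-voom test called 3 members without sgTaz tumor 5 and 1 without sgCon tumor 3 (Il1r2). The permutation test called 2 members, and 1 to 3 with a tumor left out. The cause of these differences between tools was not tested.

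With the replicate number as a block, edgeR called 0 genes (2462 at an unadjusted p below 0.05) and 0 members (3 at an unadjusted p). Deviations of tumors sharing a number had correlations of -0.150, -0.243, -0.049, 0.093 and 0.221 for numbers 1 to 5, and only number 5 correlated best with its own. So few values cannot show whether tumors with the same number share a litter, day or batch.

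Log2 fold changes with 1 tumor left out ran from -1.34 to -0.998 for Il1r2, from 0.45 to 0.62 for Il18bp, from 0.27 to 0.42 for Il1r1, from -0.155 to 0.043 for Il1rn and from -0.014 to 0.194 for Il1rap. The sign of Il1rn turned without sgCon tumor 2 (0.043) and without sgTaz tumor 1 (0.001), and that of Il1rap without sgCon tumor 4 (-0.014). In the permutation test these became 0.028, 0.015 and -0.014, and the differences of mean log2 CPM ran from -0.15 to 0.028 for Il1rn and from -0.014 to 0.222 for Il1rap. The log2 fold changes of the other members kept their sign and ran from -0.798 to -0.370 for Il1a, from -0.454 to -0.095 for Il1b, from -0.523 to -0.123 for Il33, from -0.343 to -0.156 for Il18 and from 0.184 to 0.540 for Il1rl1, so that 1 tumor moved the size of each of these by more than 1.5 times.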
